A study of Mus musculus with 10 samples.

Results

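A set of 10 neuronal activity-regulated genes was followed in the mouse hippocampus after subarachnoid hemorrhage (SAH), the bleeding around the brain that follows rupture of an artery at its base. They were Npas4, Nr4a1, Nr4a2, Nr4a3, Btg2, Arc, Homer1, Nptx2, Plk2 and Inhba, matched by gene name among the 24391 gene names counted, and all 10 were found and passed the filter on low counts. They were picked by hand as genes that neurons switch on when they fire, other than the EGR and AP-1 transcription factors, and they were chosen by their values in SAH against the other mice, so those values are given as a description and no test is read from them.

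Bulk RNA-seq was made from the hippocampus of both sides, 1 mouse per library, 4 days after surgery. All mice were males of the strain that the methods spell C56BL/6J, 10 to 14 weeks old, with no transgene or deletion in any group. In the SAH group (mice 1 to 4) a filament was pushed through the circle of Willis on 1 side, and only animals whose cerebral blood flow dropped at perforation were kept, so the group is selected on that drop. The Sham group (mice 5 to 7) went through surgery without the bleed, the Naive group (mice 8 to 10) had no surgery, and the study pooled these 6 mice as control. All animals were killed with CO2, and the libraries held 19743388 to 27254655 counts.

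When a neuron fires, calcium enters through NMDA receptors and voltage-gated channels and activates enzymes that act on CREB, SRF-associated factors and MEF2 already sitting at DNA. A rapid wave of genes is then transcribed without new protein synthesis. Some of these encode transcription factors, which shape a later wave, and others encode proteins that act directly at the synapse. Their transcripts are short-lived, and in the hippocampus they are widely used as markers of recently active neurons during learning and exploration.

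The CREB site, or CRE, is the DNA element through which calcium and cAMP reach many of these genes, so the stretch before the start site was read for it. RefSeq windows (GRCm38.p6, 250 bases before to 50 after an annotated start) were matched by symbol for 8 of the 10 genes, which have 9 windows among 32851; Arc and Nptx2 had no entry. The coordinates in this paragraph are of that build and differ from those of the counted gene models below (mm9). The 250 bases before the start are shown for 4 genes, 5′ to 3′ on the strand of the gene, with CRE letters in capitals: for Npas4 and Nr4a1, transcription factor genes that carry several short cores, and for Btg2 and Plk2, which both carry the full palindrome. A further core of Plk2 lies after its start and is not shown.
Npas4, chr19:4989972-4990221, minus strand: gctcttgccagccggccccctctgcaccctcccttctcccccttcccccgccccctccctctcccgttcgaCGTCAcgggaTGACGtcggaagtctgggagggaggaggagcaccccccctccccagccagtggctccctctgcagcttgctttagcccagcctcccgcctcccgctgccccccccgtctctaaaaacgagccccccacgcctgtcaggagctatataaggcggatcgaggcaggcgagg
Nr4a1, chr15:101266596-101266845, plus strand: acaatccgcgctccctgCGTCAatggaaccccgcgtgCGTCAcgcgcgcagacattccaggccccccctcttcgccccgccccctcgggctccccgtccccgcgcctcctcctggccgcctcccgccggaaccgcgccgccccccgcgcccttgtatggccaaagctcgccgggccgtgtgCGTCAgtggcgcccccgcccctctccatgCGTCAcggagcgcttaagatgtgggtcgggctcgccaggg
Btg2, chr1:134079156-134079405, minus strand: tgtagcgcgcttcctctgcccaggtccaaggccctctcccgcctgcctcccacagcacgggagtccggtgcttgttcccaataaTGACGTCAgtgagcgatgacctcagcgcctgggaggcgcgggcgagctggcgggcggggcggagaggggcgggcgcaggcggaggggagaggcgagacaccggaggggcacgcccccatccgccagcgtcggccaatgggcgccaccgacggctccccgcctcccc
Plk2, chr13:110394794-110395043, plus strand: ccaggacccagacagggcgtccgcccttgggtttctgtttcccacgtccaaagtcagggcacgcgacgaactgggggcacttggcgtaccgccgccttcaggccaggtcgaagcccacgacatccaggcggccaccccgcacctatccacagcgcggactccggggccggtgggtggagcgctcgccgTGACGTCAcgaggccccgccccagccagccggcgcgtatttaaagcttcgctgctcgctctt

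The CRE core TGACG, read on both strands, was found in 7 of the 9 windows, against 20.8% of all windows. Among all windows with at least 60% G and C, a limit chosen after the matches were seen and passed by 7 of the 9, the share was 31.6%. The core occurred 4 times each in the windows of Nr4a1, Nr4a2 and Nr4a3, 3 times in 1 of the Homer1 windows and in that of Plk2, and 2 times each in those of Npas4 and Btg2, counting both arms of a palindrome, and it was absent from the window of Inhba and the other Homer1 window. The full palindrome TGACGTCA, which contains the core on both strands, began 166 bases before the start of Btg2 and 62 bases before that of Plk2, against 1.79% of all windows and 3.03% of those with at least 60% G and C. In what follows the share of all windows is given before that of the windows with at least 60% G and C. The NPAS4 core TCGTG was found only in the Plk2 window (16.0% and 22.1%), and a MEF2 box in those of Nr4a2 and Inhba (3.19% and 0.588%). The MEF2 box was searched as YTAWWWWTAR, where Y is C or T, W is A or T and R is A or G. No match was found in the 9 windows for AP-1 (TGANTCA, 7.81% and 3.35%), EGR (GCGTGGGCG, 0.612% and 1.71%), the NR4A monomer element (AAAGGTCA, 1.51% and 0.537%) or the CArG box of SRF (1.63% and 1.07%). A match is a run of letters and was not shown here to be bound.

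Levels are given as CPM, the counts of a gene scaled to a library of 1000000 counts after TMM normalisation. Divided by exon length, the level in control mice was highest for Plk2, 91.4 ± 4.28 CPM per kb (SD, n = 6), and for Arc, 83.6 ± 14.6 CPM per kb, whose ranges overlapped. Nr4a1 followed with 44.4 ± 6.95 CPM per kb. Nr4a2 (24.8 ± 4.17 CPM per kb), Nr4a3 (23.7 ± 3.03 CPM per kb) and Homer1 (20.8 ± 1.3 CPM per kb) came next, and the ranges of these 3 over the control mice overlapped. Below them came Nptx2 at 14.5 ± 0.982, Btg2 at 9.33 ± 2.24, Npas4 at 6.29 ± 1.96 and Inhba at 1.59 ± 0.321 CPM per kb. Plk2 and Inhba thus marked the ends of the range, and Inhba rested on only 35 to 97 counts per library.

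**Figure D1:**
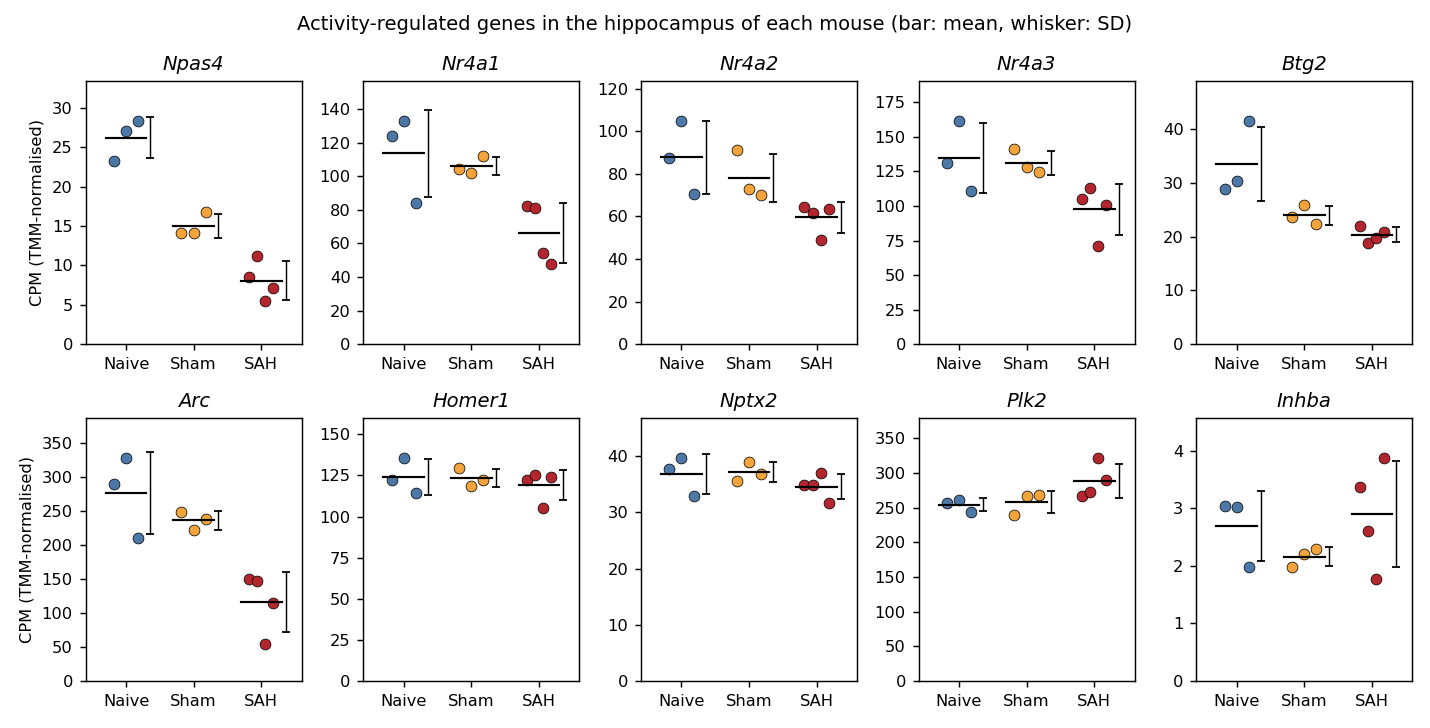
Level of each of the 10 genes in each mouse, in CPM on a linear axis from 0, by group; points are mice, horizontal bars the group means and whiskers the SD (n = 3 Naive, 3 Sham, 4 SAH). Npas4 steps down from Naive to Sham to SAH with no overlap, Arc is lowest in SAH mouse 3 at 54.3 CPM, and Homer1 and Nptx2 lie at similar heights in the 3 groups.

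The transcription factor genes were described first. Npas4 (chr19:4984355-4989971 in mm9, minus strand) encodes a neuron-specific factor that is induced by calcium entry and tunes inhibitory synapses. It stood at 23.3, 27 and 28.3 CPM in Naive mice 8 to 10, at 14.1, 14.1 and 16.8 CPM in Sham mice 5 to 7, and at 8.51, 11.2, 5.46 and 7.07 CPM in SAH mice 1 to 4. The 3 groups did not overlap, and the SAH mean was 30.8% of the Naive mean and 53.8% of the Sham mean. The log2 fold change was -1.33 ± 0.24 (SE) against control, -0.88 ± 0.179 against Sham and -1.69 ± 0.175 against Naive, the lowest of the 10 genes against control and against Naive.

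Nr4a1, Nr4a2 and Nr4a3 encode the orphan nuclear receptors Nur77, Nurr1 and NOR1, which bind DNA without a known hormone and are induced by activity and by stress signals. Nr4a1 (chr15:101097277-101105225, plus strand) stood at 124, 132.7 and 84.1 CPM in the Naive mice, at 104.5, 101.9 and 111.8 CPM in the Sham mice and at 82.2, 81.2, 54.5 and 47.6 CPM in the SAH mice. All 4 SAH mice lay below all 6 control mice, though SAH mouse 1 was close to Naive mouse 10. Its log2 fold change was -0.73 ± 0.156 against control, -0.68 ± 0.186 against Sham and -0.78 ± 0.186 against Naive.

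Nr4a2 (chr2:56959637-56976414, minus strand) stood at 87.6, 104.7 and 70.7 CPM in the Naive mice, at 91, 73 and 70 CPM in the Sham mice and at 64.2, 61.8, 48.9 and 63.6 CPM in the SAH mice. The SAH mice were again below every control mouse, and SAH mouse 3 lay apart below the other three. Nr4a3 (chr4:48058177-48099318, plus strand) stood at 131.3, 161.4 and 111.1 CPM in the Naive mice, at 141, 128.5 and 124.6 CPM in the Sham mice and at 105.4, 113.1, 70.8 and 100.9 CPM in the SAH mice. Here SAH mouse 2 passed Naive mouse 10, so the groups overlapped. The log2 fold changes against control were -0.47 ± 0.115 for Nr4a2 and -0.44 ± 0.118 for Nr4a3, so that the 3 receptors shared a direction. Against Sham alone they were -0.39 ± 0.133 and -0.43 ± 0.143, and against Naive -0.55 ± 0.132 and -0.46 ± 0.143.

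Btg2 (chr1:135971442-135975732, minus strand) encodes an antiproliferative cofactor that also recruits the deadenylation machinery to messenger RNA. It stood at 28.9, 30.3 and 41.5 CPM in the Naive mice, at 23.7, 25.9 and 22.3 CPM in the Sham mice and at 22, 18.9, 19.7 and 20.9 CPM in the SAH mice. The 3 groups did not overlap, but SAH mouse 1 and Sham mouse 7 almost touched, and the wider gap was between the Naive mice and the rest. The log2 fold change was -0.50 ± 0.143 against control, -0.24 ± 0.116 against Sham and -0.72 ± 0.115 against Naive.

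Of the genes that act at synapses, Arc (chr15:74499511-74503000, minus strand) encodes a capsid-like protein that moves to active dendrites and drives the removal of AMPA receptors. It stood at 289.4, 327.8 and 209.9 CPM in the Naive mice, at 248.9, 221.5 and 237.3 CPM in the Sham mice and at 149.6, 146.8, 54.3 and 114.8 CPM in the SAH mice. Every SAH mouse was below every control mouse, and the SAH mean was 45.5% of the control mean. The log2 fold change was -1.13 ± 0.221 against control, -1.02 ± 0.255 against Sham and -1.24 ± 0.255 against Naive, and against control it was -0.90 without SAH mouse 3.

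The remaining synaptic genes showed much smaller differences. Homer1 (chr13:94074450-94175084, plus strand) encodes a scaffold that ties metabotropic glutamate receptors to the postsynaptic density, and its short, activity-induced form could not be told apart from the long ones because reads of all isoforms were summed. It stood at 122.1, 135.7 and 114.3 CPM in the Naive mice, at 129.4, 118.6 and 122 CPM in the Sham mice and at 122.2, 125.4, 105.5 and 124 CPM in the SAH mice. The groups overlapped, with a log2 fold change against control of -0.05 ± 0.0575. With 100.6 kb from its first to its last exon it was also the longest gene of the 10, against 3.5 kb for Arc, 4.3 kb for Btg2 and 5.6 kb for Npas4.

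Nptx2 (chr5:145306756-145318347, plus strand) encodes a secreted pentraxin that gathers AMPA receptors at excitatory synapses. It ranged from 32.9 to 39.7 CPM in the control mice and stood at 34.8, 34.8, 37 and 31.7 CPM in the SAH mice, with a log2 fold change against control of -0.10 ± 0.0615. Plk2 (chr13:111185252-111191051, plus strand) encodes a kinase that weakens synapses after prolonged activity. It ranged from 239.3 to 267.9 CPM in the control mice and stood at 266.2, 273.1, 321.6 and 290.1 CPM in the SAH mice. Plk2 was thus the reverse of Arc in SAH mouse 3, where it reached its highest level, and its log2 fold change against control was 0.17 ± 0.0536. It was not called here (edgeR), but DESeq2 and scaling by library size alone called it higher, as did 2 of 10 fits with 1 mouse left out, and its log2 fold change was 0.11 without SAH mouse 3.

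Inhba (chr13:16106308-16119044, plus strand) encodes the subunit of activin A, a secreted factor that acts on neuronal survival and spines. It ranged from 1.98 to 3.05 CPM in the control mice and stood at 3.38, 2.61, 1.77 and 3.88 CPM in the SAH mice. The SAH mice took both the lowest and the highest value, and the log2 fold change against control was 0.27 ± 0.208, and from 0.10 to 0.44 with any 1 mouse left out. Against Sham it was 0.44 ± 0.248 (0.26 to 0.60 with 1 mouse left out) and against Naive 0.12 ± 0.244 (-0.06 to 0.29).

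In the fit over all genes with edgeR, 6 of the 10 genes were past an adjusted p of 0.10 in SAH against control, all lower (Npas4, Arc, Nr4a1, Nr4a2, Nr4a3 and Btg2), where 1.54% of the 14993 genes tested were called lower. The count was 1 against Sham (Npas4), where 0.192% of 15134 genes were called lower, and 5 against Naive (all but Nr4a3 of those 6), where 0.965% were. All 4 SAH mice lay below all 6 control mice for 5 of the 10, against 2.37% of all genes. The Npas4 call against Sham was lost in 7 of 10 fits with 1 mouse left out, with a robust fit, with only the 2 groups fitted, at an adjusted p of 0.05 and without 3 libraries high in choroid plexus markers, where its log2 fold change was -0.50. These contrasts share the SAH mice and chose the genes, so nothing is read from these shares. Npas4, Arc and Nr4a1 kept their call against control when any 1 mouse was left out, whereas the count of called genes fell to 3 without SAH mouse 4 or without Naive mouse 8. The call of Nr4a2 was lost without either of these, that of Nr4a3 in 5 of 10 such fits and that of Btg2 in 6 of 10.

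**Figure D2:**
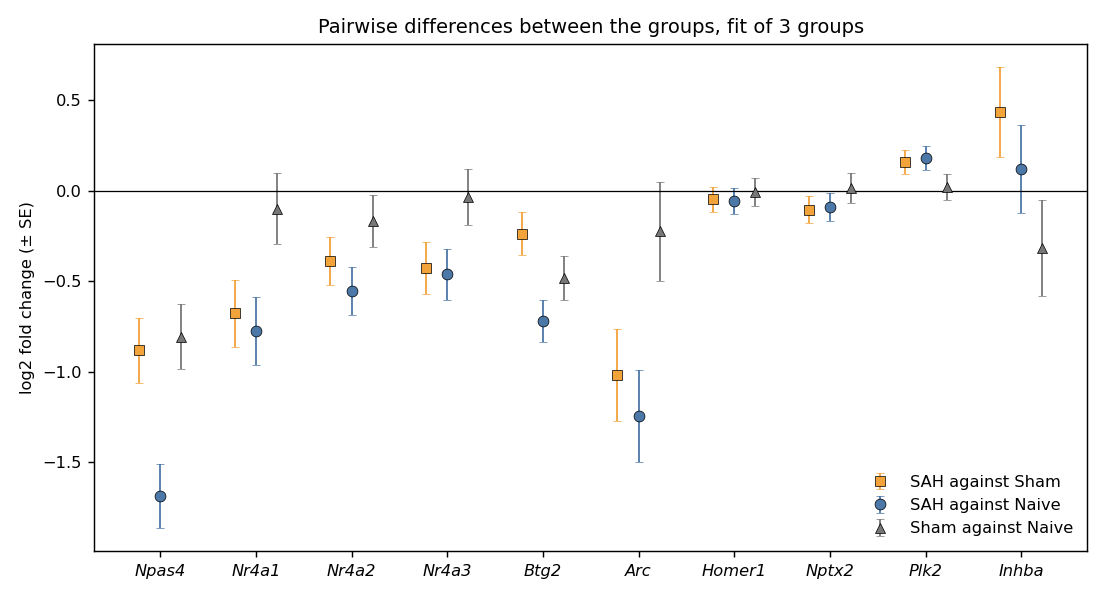
Log2 fold change of each gene with its standard error in the 3 pairwise comparisons of the fit of 3 groups. Npas4 and Btg2 differ between Sham and Naive by -0.81 and -0.48, whereas the Sham against Naive points of Nr4a3, Homer1, Nptx2 and Plk2 sit within 0.04 of 0.

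The Sham against Naive comparison sets no SAH mouse against another group, although the SAH mice entered the normalisation, filter and spread of the fit, and asks whether surgery alone went with a difference in these genes. With edgeR, 0 of the 10 passed an adjusted p of 0.10, beside 0% of all genes called lower and 0.00661% called higher. At an unadjusted p under 0.05 there were 2, Npas4 and Btg2, beside 2.02% of all genes, and DESeq2 gave 0 and 2. Npas4 was lower in all 3 Sham mice than in all 3 Naive mice, at 57.2% of the Naive mean, with a log2 fold change of -0.81 ± 0.181. In the edgeR quasi-likelihood test its unadjusted p was 0.000715, the rank 5 of 15134 genes, and its adjusted p was 1. Btg2 was likewise lower in 3 of 3 Sham mice, at 71.5% of the Naive mean, with a log2 fold change of -0.48 ± 0.122. Its unadjusted p in the same test was 0.00174, the rank 10, and its adjusted p in edgeR was 1. The share of all genes with every Sham mouse below every Naive mouse was not counted, so nothing is read from that separation. The Npas4 difference hardly changed in size when only these 6 mice were fitted, but its standard error was 0.093 and it passed the threshold (edgeR adjusted p = 0.0196); over its other alternatives the adjusted p ran from 0.00896 to 1. For Btg2 the log2 fold change was -0.30 without Naive mouse 10, the mouse with its highest level.

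The other genes of the group gave no call between Sham and Naive. Arc was at -0.22 ± 0.272 and Inhba at -0.32 ± 0.266 on the log2 scale, where the standard errors leave room for a difference of either sign. Homer1 (-0.01 ± 0.0757), Nptx2 (0.02 ± 0.0809) and Plk2 (0.02 ± 0.0705) were held more narrowly around 0. For 7 of the 10 genes the group means ran in the order SAH, Sham, Naive from low to high, the exceptions being Nptx2, Plk2 and Inhba, but for most of them Sham and Naive mice overlapped. Over these 7 the Sham mean ran from 57.2% (Npas4) to 99.5% (Homer1) of the Naive mean. The genes were chosen by their SAH values and the share of all genes in this order was not counted, so nothing is read from it.

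The genes also differed in how much they varied between mice of a group, a measure that does not use the group means. The biological coefficient of variation (BCV), the spread left after counting error, was 23.8% for Arc, above that of 95.5% of all genes tested. This value includes SAH mouse 3, which was at -0.99 from its group's mean of log2 CPM for Arc. The other mice were at -0.37 to 0.47. The BCV was 19.7% for Inhba, 17.2% for Nr4a1, 15.7% for Npas4, 13.3% for Nr4a3, 12.3% for Nr4a2 and 10.5% for Btg2. Nptx2, Homer1 and Plk2 varied little, at 6.95%, 6.87% and 6.69%. The median over the 10 genes was 12.8%, against 8.03% over all genes, and 8 of the 10 were above the trend for their level. Homer1 was among these 8 with 6.87% against a trend of 6.58%, and the share of all genes above the trend was not counted. Each of the 6 genes called lower after SAH had a BCV of 10.5% or more. The spread also depended on the group. The coefficient of variation (CV) of CPM for Arc was 38.1% in the SAH mice, 21.8% in the Naive mice and 5.81% in the Sham mice. In the same order it was 27%, 22.8% and 4.86% for Nr4a1, and 6.62%, 20.6% and 7.55% for Btg2. In the Sham mice the CV of the 10 genes ran from 4.49% (Homer1) to 14.6% (Nr4a2).

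**Figure D3:**
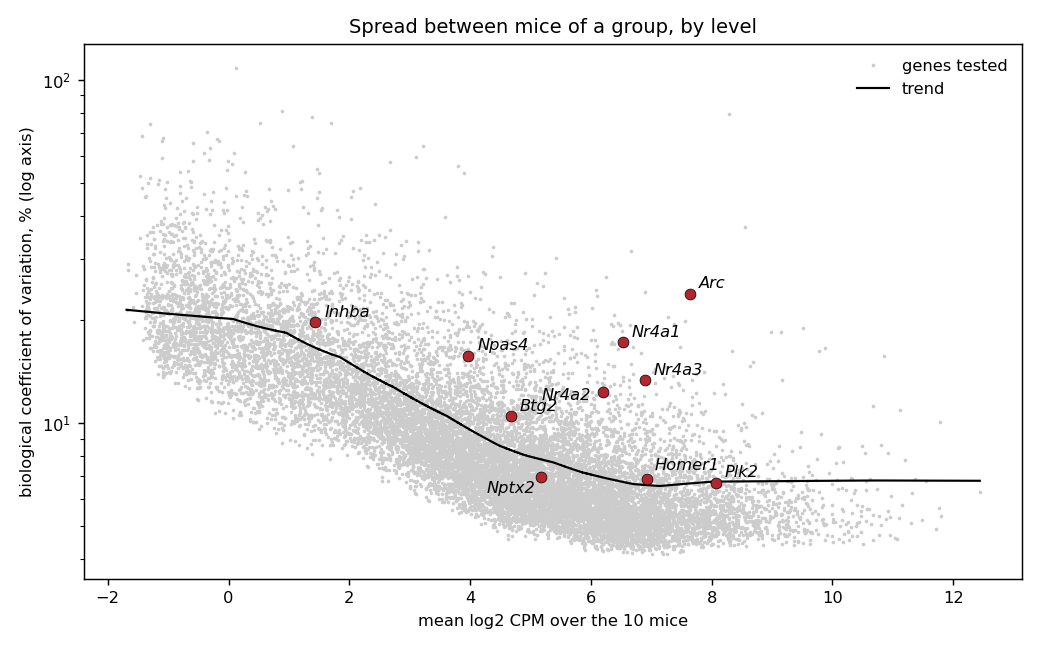
Biological coefficient of variation within groups, on a log axis, against mean log2 CPM; grey points are the 15134 genes tested, the line is the trend with level and red points are the 10 genes. Arc, at 23.8% with SAH mouse 3 included, stands furthest above the trend, while Homer1, Nptx2 and Plk2 lie close to it or under it.

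Several of the genes rose and fell together from mouse to mouse within a group. After each group's mean was subtracted from log2 CPM (10 mice, 7 degrees of freedom, libraries shared by both genes of a pair), Homer1 and Nr4a3 had a Pearson r of 0.97, Arc and Nr4a3 0.94, Homer1 and Nr4a2 0.93, Nr4a2 and Nr4a3 0.90, and Arc and Homer1 0.87. With Nr4a1, the r of Homer1 was 0.54, and between 0.36 and 0.87 with any 1 mouse left out. Homer1 thus went with Nr4a3, Nr4a2 and Arc between mice although its group means were nearly level, over a narrow range, from -0.17 to 0.13 on the log2 scale. The r of Homer1 with Nr4a3 stayed between 0.94 and 0.98 when any 1 mouse was left out. That of Arc with Npas4 did not hold in this way, since it was 0.72 with all mice and 0.21 without SAH mouse 3.

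Not every gene joined this pattern. Plk2 had a negative r with 8 of the other 9 genes, among them -0.67 with Arc, but without SAH mouse 3 it was negative with 5 of 9, at -0.03 with Arc and between -0.10 and 0.05 with Nr4a1, Nr4a2, Nr4a3 and Homer1, and it was 0.65 with Inhba. Btg2 had a negative r with 8 of 9 as well and reached only 0.04 with Npas4. With 1 mouse left out, its r could turn positive with Arc, Nr4a2, Nr4a3, Nptx2, Homer1 and Inhba, up to 0.44 with Inhba. It stayed negative in every such fit only with Nr4a1 and Plk2, and with Npas4 it ran from -0.22 to 0.37. Over all 45 pairs the median r was 0.24, with 27 positive, 18 negative and 20 over 0.5, against a median of 0 over all pairs of genes. The share of all pairs over 0.5 was not counted.

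**Figure D4:**
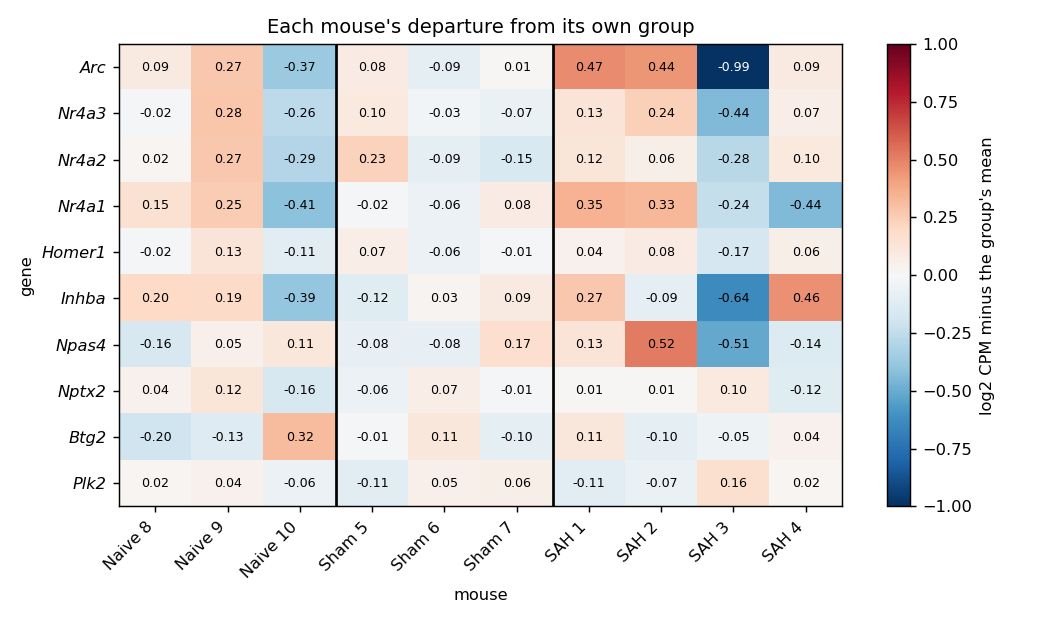
Departure of each mouse from the mean of its own group, in log2 CPM, for the 10 genes (rows) and 10 mice (columns); red is above and blue below the group mean. SAH mouse 3 is low for Arc at -0.99, Inhba at -0.64 and Npas4 at -0.51, and in Naive mouse 10 Btg2 is at 0.32 while Arc is at -0.37.

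The mean departure over the 10 genes differed between mice of a group. SAH mouse 3 was above its group's mean for only 2 of the 10 genes, Plk2 and Nptx2, and its mean departure was -0.31, while SAH mice 1 and 2 were above for 9 and 7 of 10, with means of 0.15 and 0.14, and SAH mouse 4 was at 0.01. Naive mouse 8 was at 0.01, Naive mouse 9 was above for 9 of 10, with a mean of 0.15, and Naive mouse 10 above for 2 of 10, Npas4 and Btg2, with a mean of -0.16. Naive mouse 10 therefore held the highest Npas4 and Btg2 of all mice together with the lowest Arc, Nr4a1 and Nr4a3 of the control mice. The 3 Sham mice stayed within 0.01 of 0 on average.

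SAH mouse 3 stood out over all genes and in tissue markers too. The counts of each pair of libraries were compared by chi-square per degree of freedom, which grows as they differ. It was 15.3 to 27.0 between SAH mouse 3 and the other mice. It was 13.3 to 16.5 between SAH mouse 4 and the control mice, and 3.62 to 9.09 between control mice. Whether the low values of the 10 genes in SAH mouse 3 are part of this was not tested. The summed level of 6 choroid plexus markers (Ttr, Folr1, Kl, Aqp1, Clic6, Otx2) was 1218 CPM in SAH mouse 3, 855.7 CPM in SAH mouse 4, 99.6 and 212.5 CPM in SAH mice 1 and 2, 44 to 67 CPM in the Naive mice, and 208.5, 56.7 and 821.2 CPM in the Sham mice. Without the 3 libraries over 800 CPM, a choice made after seeing the data that leaves 2 SAH mice, Arc (-0.80 ± 0.132) and Npas4 (-1.09 ± 0.263) kept their call in SAH against control, and the log2 fold change of Nr4a1 was -0.42 ± 0.124. Between Sham and Naive, the same fit gave Npas4 a log2 fold change of -0.89 ± 0.111 with an edgeR adjusted p of 0.00896. The part of choroid plexus RNA in these results was not tested.

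The summed level of 12 pan-neuronal markers ran from 10473 to 10916 CPM in the SAH mice and from 10603 to 11293 CPM in the control mice, so the ranges overlapped. Of these 12, only Elavl3 was called lower in SAH against control (log2 fold change -0.26 ± 0.0702, edgeR adjusted p = 0.0736), and the values of Map2 (-0.13), Eno2 (-0.06) and Nefm (-0.09) were not past the threshold. Of 8 excitatory markers, C1ql2 of the dentate gyrus was called higher (0.34 ± 0.0931), and of 8 inhibitory markers somatostatin, Sst, was called lower (-0.27 ± 0.0608). None of the markers of neurons was at 0 in any group. Among other cell types, 6 of 6 oligodendrocyte markers were called lower, with sums of 4550 to 5832 CPM after SAH and 6701 to 9307 CPM in control. Called higher were 5 of 6 meningeal fibroblast, 3 of 6 endothelial, 2 of 6 microglia and 1 of 6 astrocyte markers. Of the choroid plexus markers 0 of 6 were called, and of the tested thalamus markers 0 of 5. Over all genes, 1.54% were called lower and 3.13% higher in SAH against control. The part of these cell types in the values of the 10 genes was not tested, and in bulk tissue fewer cells of a type and less RNA per cell cannot be told apart.

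The rest of the activity response was read from lists of genes, chosen like the 10 with earlier results of these data known. Of the EGR and AP-1 factors, the other large class of rapid transcription factors, 6 of 10 tested were called lower in SAH against control, where 1.54% of all genes were, with a list median of -0.78 on the log2 scale beside -0.46 for the 10 genes described here and -0.002 for all genes. Fos fell from 34.1 ± 8.77 CPM (SD, n = 6) to 11.3 ± 4.33 CPM (n = 4), a log2 fold change of -1.57 ± 0.231 (edgeR adjusted p = 0.00375), and Egr2 from 7.94 ± 2.12 to 1.91 ± 1.21 CPM. Egr4 (-0.87 ± 0.124) and Junb (-0.70 ± 0.117) were also lower.

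Of 24 other rapid genes, 5 were called lower and 1 higher, where 1.54% and 3.13% of all genes were. Ier2 (-0.94 ± 0.154) and Dusp1, a phosphatase that shuts off MAP kinases (-0.71 ± 0.12), and Nfil3 (-0.40 ± 0.0862) fell, whereas Ier3 rose from 2.74 ± 0.595 to 4.47 ± 0.488 CPM (0.70 ± 0.153, edgeR adjusted p = 0.0271).

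Of 14 late activity-induced genes, 0 were called in edgeR, where 1.54% of all genes were called lower and 3.13% higher. The list median was -0.04 on the log2 scale. The nearest were Rgs4 at -0.31 ± 0.0942 (edgeR adjusted p = 0.112) and Vgf at -0.17 ± 0.057, and Bdnf, the neurotrophin, was at -0.19 ± 0.109 and Nrn1 at 0.10 ± 0.0529. Of 25 genes that carry the calcium signal to the nucleus, from NMDA receptor subunits to CREB coactivators, 0 were called, with a list median of 0.04. In lists of 14 and 25 genes a count of 0 is near the shares of all genes, so nothing is read from it. Camkk1, a calmodulin kinase kinase, was at 0.36 ± 0.116 (edgeR adjusted p = 0.132), Mef2a at 0.20 ± 0.067, Crtc2 at 0.19 ± 0.0699 and Grin2a at 0.21 ± 0.0791.

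Among 29 partners and relatives of the 10 genes, 1 was called, where 1.54% of all genes were called lower and 3.13% higher. The count is near these shares, so nothing is read from it. Follistatin, Fst, the secreted protein that binds and neutralises activin, fell from 1.90 ± 0.421 to 1.15 ± 0.0946 CPM (-0.72 ± 0.197, edgeR adjusted p = 0.0718), at a low level, while Inhba itself was not called. The Homer1 partner Shank1 was at -0.16 ± 0.0483, Plk3 at -0.32 ± 0.106 and the activin receptor Acvr2a at -0.18 ± 0.066, none past the threshold. In Sham against Naive, 0 genes of any of these lists passed the threshold in edgeR.

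**Figure D5:**
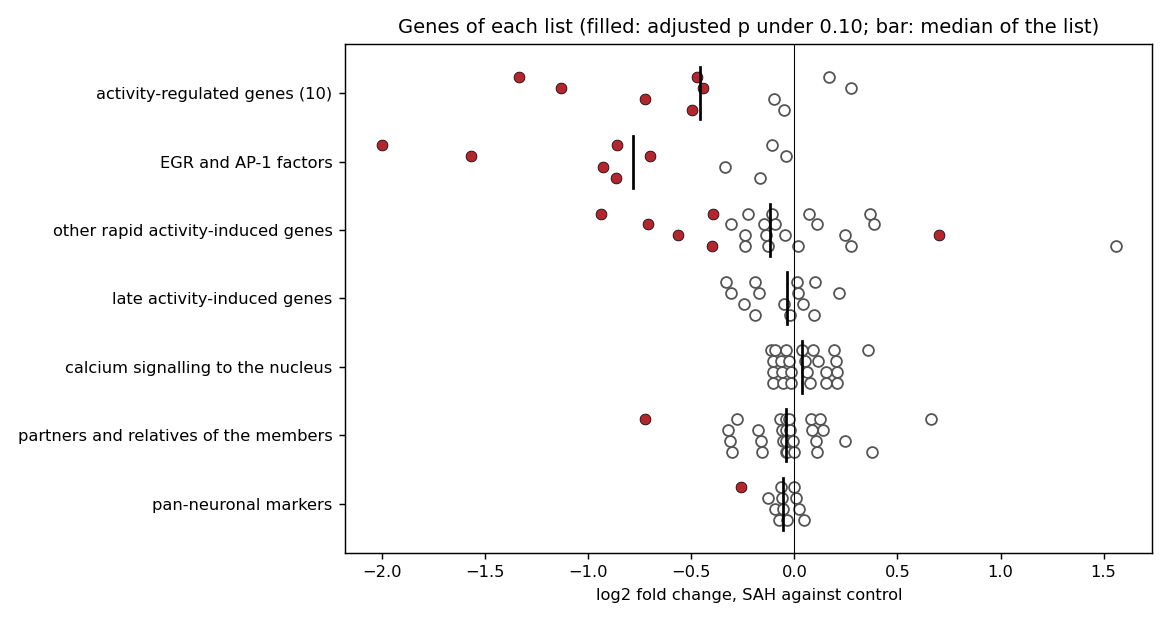
Log2 fold change in SAH against control of the 10 genes and of the genes of 6 other lists; each point is a gene, filled where the adjusted p was under 0.10, and the bar is the median of the list. The EGR and AP-1 factors and the 10 genes reach furthest to the left, down to -2.00 and -1.33, while the late genes and the calcium signalling genes stay between -0.33 and 0.36 with no filled point.

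The genes whose levels most resembled the 10 were found by Pearson r over the 10 mice with the mean of their standardised log2 CPM. That mean ran from -1.11 in SAH mouse 3 to 1.10 in Naive mouse 9, and Naive mouse 10, at -0.09, lay below the 3 Sham mice, at 0.14 to 0.17. The most alike were Prr12 (r = 0.962), Dctn1, Gnao1, Ipo9, Sh3rf3, Wiz, Hivep3, Ank1, Midn and Map7d1 (r = 0.948). Among the most opposed were Slc2a4, which encodes the insulin-responsive glucose transporter GLUT4 (r = -0.974), Bhlhe41, Ms4a6b and Tlr13. None of these genes was in any of the lists. Within groups, the r of the 10 most alike genes with the mean of the activity-regulated genes ran from 0.87 to 0.98. Moving together between mice was thus not particular to the activity-regulated genes. The points share depth and library, so the values describe these mice only.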

How the data were processed

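RNA-seq counts per gene were deposited by the authors, 1 table per mouse, and are unnormalised whole numbers. Per the file headers and the methods, stranded, ribosome-depleted libraries were aligned with STAR to mm9 and counted with featureCounts 1.6.2 against UCSC iGenomes gene models, with all isoforms of a gene name summed. Coordinates are those of the counted models. Groups came from the sample labels. No 2 libraries agreed within sampling noise, and p-values reflect the spread between mice.

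Here counts were filtered (filterByExpr, minimum count 10 and total 15), TMM-normalised and tested with the edgeR 4.0.16 quasi-likelihood test (R 4.3.3), in a 2-group fit for SAH against control and a 3-group fit for the pairs, with Benjamini-Hochberg adjustment over all genes and a threshold of 0.10. The authors used DESeq2, which served as an alternative (DESeq2 1.42.0). Standard errors were obtained from the fold change and its F statistic. Log2 CPM for correlations used a prior count of 2. The scripts were tested on simulated data.

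The 10 genes and all lists were chosen with earlier results of these data known. Named besides the 10 were up to 4 genes of each list with the smallest p in SAH against control, any gene of a list past the threshold in Sham against Naive, and the 10 most alike and 5 most opposed genes, of which 1 is not reported here. Alternatives were other size factors, library size alone, other filters, an adjusted p of 0.05, a robust fit, a fit of the mice compared, each mouse left out, a prior count of 0.5, and, added after seeing the data, leaving out 3 libraries with high choroid plexus markers.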

Additional observations from a re-analysis of the deposited data

Results flagged for a closer look

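Among 20 sets of values looked at, the 10 genes in the 4 SAH mice and in the 6 control mice, SAH mouse 3 lay far from the other SAH mice for 2 genes, where chance flags about 1 set in 20. Nr4a2 measured 48.9 CPM there, and its 3 companions ran from 61.8 to 64.2 CPM. Homer1 measured 105.5 CPM, with the companions at 122.2 to 125.4 CPM. This mouse also had the highest sum of choroid plexus markers and differed widely from the other libraries over all genes. Whether these are related was not tested.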

How the results depend on the processing

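Leaving out 1 mouse at a time gave 308 to 1093 genes past the threshold in SAH against control (701 with all mice), 6 to 215 against Sham (109), 109 to 683 against Naive (453) and 0 to 1 in Sham against Naive (1). For the 10 genes the counts ran from 3 to 7, 0 to 2, 2 to 6 and 0 to 0, the median r between 0.191 and 0.317, and the median BCV between 9.97% and 13.5%. DESeq2 called 300 genes against Sham, 735 against Naive and 2 in Sham against Naive. With no filter 182 genes and 2 of the 10 were called against Sham. At an adjusted p of 0.05 there were 369 genes against control, 49 against Sham and 260 against Naive, with 0 of the 10 against Sham and 3 against Naive. The robust fit called 0 of the 10 against Sham and 3 against Naive. Fitting only the mice of the groups compared gave 12 genes against Sham with 0 of the 10, 282 against Naive, and 3 in Sham against Naive with 1 of the 10 (Npas4). Without the 3 libraries with high choroid plexus markers there were 330 genes and 2 of the 10 (Arc, Npas4) against control, and 4 genes and 1 of the 10 (Npas4) in Sham against Naive. The cause of these moves was not tested beyond the fewer mice and stricter threshold that some have by construction.

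Signs turned for 6 genes, among values not past the threshold. In Sham against Naive with 1 mouse left out, the log2 fold change ran from -0.275 to 0.027 for Nr4a1, -0.154 to 0.116 for Nr4a3, -0.06 to 0.072 for Nptx2, -0.063 to 0.061 for Homer1 and -0.007 to 0.074 for Plk2. In the SAH contrasts Homer1 ran from -0.076 to 0.005 against control, -0.076 to 0.008 against Sham and -0.111 to 0.015 against Naive, turning without SAH mouse 3 in each and against Naive also without Naive mouse 9, and Inhba ran from -0.057 to 0.29 against Naive, turning without SAH mouse 4 or Naive mouse 10. Without the 3 libraries Homer1 was 0.002, 0.001 and 0.002 in these contrasts. In Sham against Naive Homer1 turned to 0.003 with library size alone, and the fit without the 3 libraries turned Nr4a3 (0.005), Homer1 (0.002) and Plk2 (-0.005). Of all values of single genes under the alternatives, 678 kept their direction and side of the threshold, 46 lost a call, 13 gained one and 23 turned sign. No paired analysis was possible because mouse numbers are not shared between groups. Inhba rests on 35 to 97 counts per library, so its counting error is the largest of the 10. Plk2 in SAH against control, not called here, was called higher by DESeq2 and with library size alone.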
